A study of Mus musculus with 18 samples.

Results

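The proneural and neuroblast genes are 9 genes that mark steps on the way from a neural progenitor to a young neuron: Neurog2, Eomes, Neurod1, Dlx1, Dlx2, Sox4, Sox11, Dcx and Tubb3. They are set by name, with no threshold on a measured value, and each had 1 row among the 27997 genes of the deposited expression table. RNA was sequenced from 3 adherent lines, each as neural stem cells (NSCs) and as the astrocytes made from them, with 3 replicates in each of the 6 groups and 18 libraries in all. The tdTomato line and the EYFP line came from spinal cord cells lineage traced for DNGR-1, a receptor encoded by Clec9a and otherwise known from dendritic cells, and carry the genotypes DNGR-1 +/- Tom+/- and DNGR-1 +/- EYFP+/-. In these mice (DNGR-1CreROSALSLtdTomato and DNGR-1CreROSALFLEYFP) Cre recombinase expressed with DNGR-1 switches on the reporter for good, and reporter-positive cells were sorted from neurospheres to start the lines. The hippocampal line has the genotype DNGR-1+/+ and came from GlastCreHuweflROSALSLEYFP mice, which carry a Cre under the Glast promoter and a floxed Huwe allele. Whether that Cre had been active is not given in the sources used here, and Huwe1 lay between 12.97 and 13.38 in all 18 libraries (Huwe1 was looked at after the values were seen). NSCs were grown for 4 days with EGF and bFGF on laminin. Astrocytes were made by replacing this medium with one holding BMP4 at 20 ng/ml, and were collected at 6 days, so fate cannot be told apart from medium and time in culture. Each line is 1 culture sampled at passages 10, 11 and 12, so origin, genotype, mouse and line cannot be told apart. The p-values measure the spread between passages of a line. In the comparison of origins, the distance between the tdTomato and EYFP lines also counts as spread. In the comparison of fates over all lines, differences between lines in that change also count.

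Neurogenesis runs through a relay of transcription factors. Proneural basic helix-loop-helix (bHLH) factors such as Neurog2 bind E-box sequences together with E proteins and start the neuronal programme. Eomes (also called Tbr2) and Neurod1 follow in intermediate progenitors of the glutamatergic lineage, Dlx1 and Dlx2 specify GABAergic interneurons, Sox4 and Sox11 activate neuronal genes in committed precursors, and the microtubule protein doublecortin (Dcx) and the neuronal tubulin Tubb3 mark migrating neuroblasts and young neurons. Id and Hes proteins hold this relay back, and BMP signalling, which drives astrocyte formation from NSCs, is known to induce Id genes.

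The proximal promoters of Sox4, Sox11 and Dlx2 are shown because Sox4 and Sox11, paralogous genes of the SoxC group, fell together in all 3 lines whereas Dlx2 did not pass the main test in any of them. The sequences are those of RefSeq on GRCm38.p6, read 5′ to 3′ on the strand of the gene, which is the minus strand for these 3 genes. They cover chr13:28953720-28953949 for Sox4, chr12:27342739-27342968 for Sox11 and chr2:71546775-71547004 for Dlx2. Capitals mark E-boxes (CANNTG), the motif of bHLH factors, and a further E-box of Dlx2 lies beyond the stretch shown.
Sox4: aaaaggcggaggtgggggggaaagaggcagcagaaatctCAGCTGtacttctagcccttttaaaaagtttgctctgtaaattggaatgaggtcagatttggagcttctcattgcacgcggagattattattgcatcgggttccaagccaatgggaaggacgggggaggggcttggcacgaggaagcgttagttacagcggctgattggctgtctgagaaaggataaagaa
Sox11: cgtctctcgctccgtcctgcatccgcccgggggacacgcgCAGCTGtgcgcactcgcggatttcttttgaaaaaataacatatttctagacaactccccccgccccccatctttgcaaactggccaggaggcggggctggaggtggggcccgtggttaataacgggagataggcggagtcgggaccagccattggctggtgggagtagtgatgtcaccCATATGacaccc
Dlx2: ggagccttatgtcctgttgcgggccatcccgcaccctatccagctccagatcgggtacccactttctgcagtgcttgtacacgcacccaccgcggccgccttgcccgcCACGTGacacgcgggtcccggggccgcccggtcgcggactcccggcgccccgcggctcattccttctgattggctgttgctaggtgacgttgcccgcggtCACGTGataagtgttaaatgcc
All 9 genes were found in the promoter table, with 10 windows of 300 bases, 250 before and 50 after the start, because Dcx has 2. An E-box was present in the windows of 4 of the 9 genes: once in Sox4 and Neurod1, 2 times in Sox11 and 3 times in Dlx2. Of all 32851 windows, 72.3% held an E-box on either strand. The Sox4 and Sox11 windows both held the E-box CAGCTG, which 16.3% of all windows contained and none of the other windows of the 9 genes. The N-box (CACNAG, either strand), a motif of Hes repressors, was found in the windows of 7 of the 9 genes, all but Dlx2 and Tubb3, and in 42.5% of all windows. These matches describe letters and not binding.

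The levels below are normalised log2 values as deposited, and a difference of 1 is a doubling. The transform is not named, but the values have the form of a regularised log. Such a scale shrinks differences between low values, so that the changes of weakly expressed genes may be understated. A gene was tested where 3 or more of the libraries in a comparison reached 3.32, which is a linear level of 10. Dlx1, Sox4, Sox11 and Tubb3 reached that level in all 18 libraries, Dlx2 in 17, Dcx in 11, Eomes in 10, and Neurog2 and Neurod1 in none. Per kilobase of exon, on the linear scale, the median level over the NSC libraries was 2310 for Sox4, 304 for Sox11, 65.5 for Tubb3, 10.5 for Dlx1, 5.54 for Dlx2, 4.21 for Eomes, 1.76 for Neurod1, 0.724 for Neurog2 and 0.39 for Dcx. Sox4 was thus at the 98.7th percentile of all genes by its mean value and Sox11 at the 87th, while Dcx and Eomes stood near the middle, at 49.7 and 49.3, and Neurog2 at 33.1. A pseudocount of 10 shrank the called differences of Eomes, Neurod1, Dcx and Dlx2 by over 1.5 times in most comparisons and ended none of these calls, so that Dcx differed by 0.72 in place of 1.47 between fates over all libraries. By these NSC medians the SoxC factors stood highest per length and Neurog2, Neurod1 and Dcx lowest, whereas in astrocytes the median of Dcx, 1.59, lay just above that of Eomes, 1.47.

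**Figure D1:**
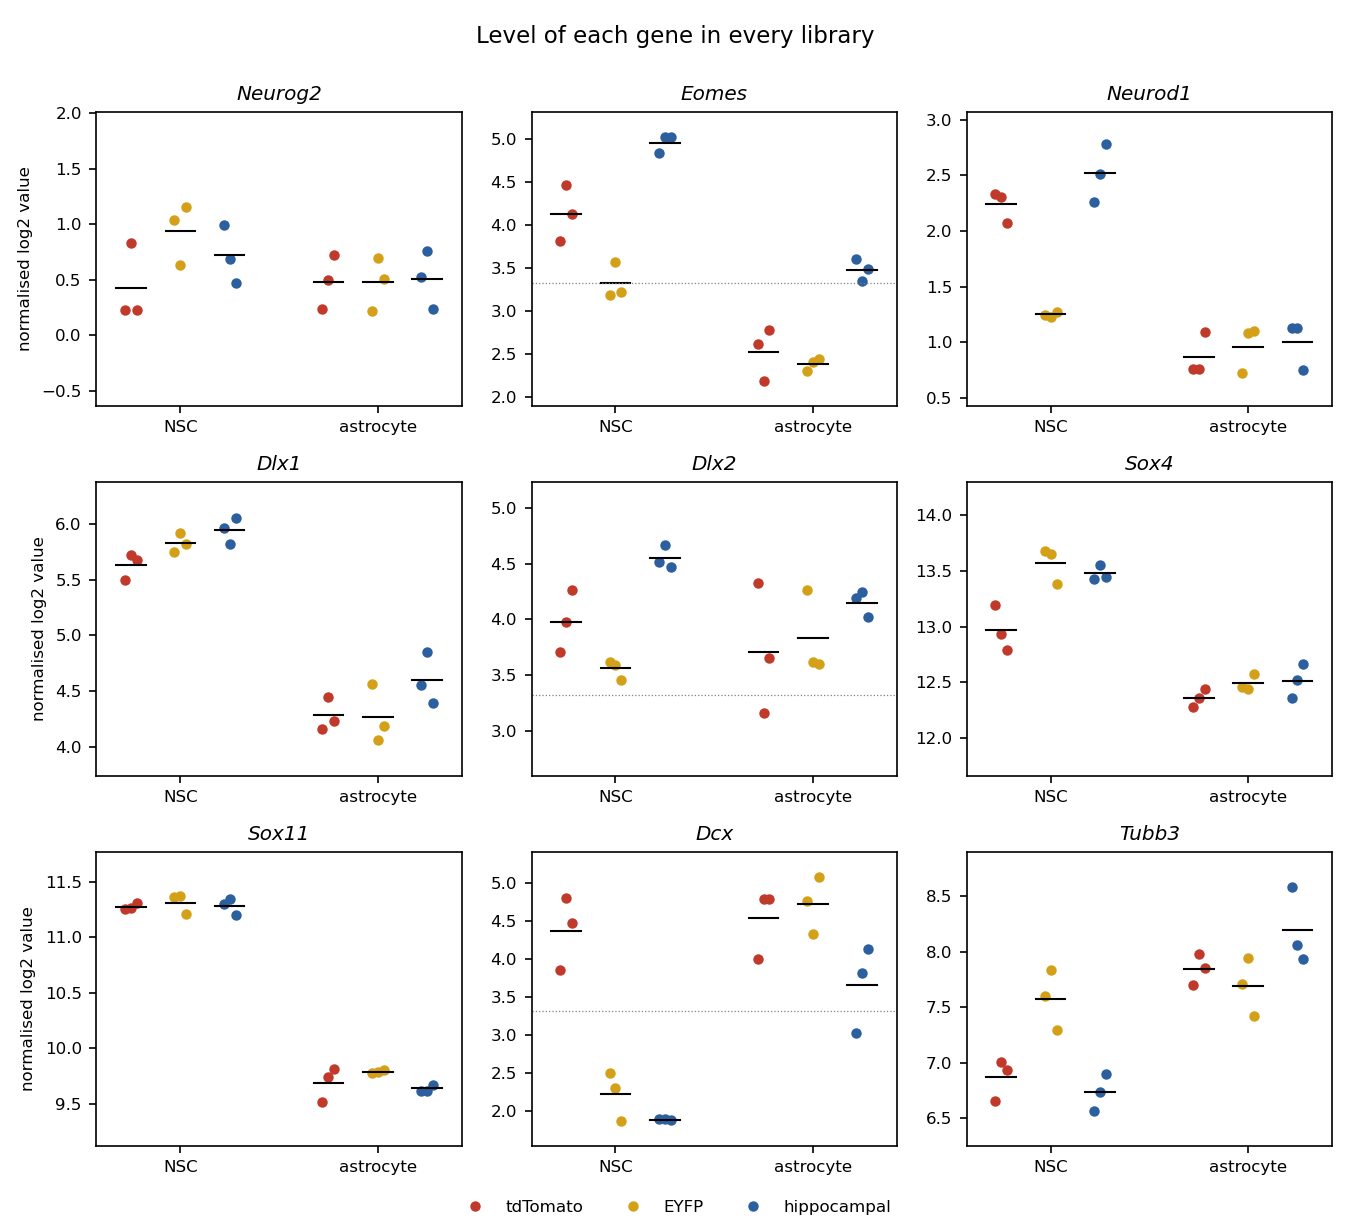
Normalised log2 value of each of the 9 genes (y axis, a separate range for each panel) in the 18 libraries, by fate (x axis) and line (colour). Points are libraries, black bars the mean of 3, and the dotted line, where it falls inside a panel, the level of 3.32 used as a filter. Sox11 splits into 2 bands by fate, while Dcx is high in tdTomato NSCs alone among the NSC groups.

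The first question of the design is how the genes change from NSC to astrocyte. With all 18 libraries in a fit that allowed for the line, 7 of the 9 genes could be tested. Sox11, Dlx1, Eomes and Sox4 fell and Dcx and Tubb3 rose, while Dlx2 did not pass the test. These 4 falls and 2 rises among 7 genes stand beside a background in which 39.8% of the 15448 genes tested fell and 42.1% rose, so that being called was the rule in this comparison.  Bulk RNA cannot tell fewer cells of a kind from less RNA per cell.

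Sox11, a SoxC factor that drives neuronal genes, had the largest share of its variation between fates. In NSCs it lay at 11.25, 11.26 and 11.31 in the tdTomato line, 11.36, 11.37 and 11.21 in the EYFP line and 11.30, 11.34 and 11.20 in the hippocampal line. In astrocytes it lay at 9.52, 9.74 and 9.81, at 9.78, 9.79 and 9.80, and at 9.62, 9.62 and 9.67 in the same order. The 2 fates did not overlap and the lines lay almost on top of each other within each fate. The fall was 1.58 ± 0.04 (SE) on the log2 scale, a factor of 2.99 (limma, adjusted p = 8.35e-17). By line the log2 difference was -1.58, -1.52 and -1.64 in tdTomato, EYFP and hippocampal cells. Fate accounted for 99% of the sum of squares of Sox11 over the libraries, line for 0.234% and replicates for 0.651%.

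Sox4, another SoxC factor, fell less. Its NSC values were 13.19, 12.93 and 12.79 in the tdTomato line, 13.68, 13.65 and 13.38 in the EYFP line and 13.43, 13.55 and 13.45 in the hippocampal line. Its astrocyte values were 12.28, 12.36 and 12.44, then 12.46, 12.44 and 12.57, then 12.36, 12.52 and 12.66. The fates did not overlap, and tdTomato NSCs were the lowest of the NSC groups. The log2 difference was -0.89 ± 0.07 (SE, adjusted p = 3.5e-09), a factor of 1.85, and within lines it was -0.61 in tdTomato, -1.08 in EYFP and -0.96 in hippocampal cells. Sox4 (chr13:28948919-28953713, GRCm38, minus strand, 1 exon) shares 2616 of its exon bases, 54.6%, with the lincRNA Gm26735 on the opposite strand. The labels name a stranded kit, but the strand setting of the counting is not stated. Gm26735 stood between 0.35 and 0.53 in 15 libraries and at 7.95, 6.62 and 7.63 in tdTomato astrocyte replicates 2 and 3 and EYFP astrocyte replicate 2, and no call of Sox4 changed when both were summed on the linear scale, an alternative chosen after the values were seen.

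Dlx1, a homeobox factor of interneuron precursors, fell by a similar amount in every line. Its NSC values ran from 5.50 to 6.06 with a median of 5.82 and its astrocyte values from 4.06 to 4.85 with a median of 4.39, and the fates did not overlap. The log2 difference was -1.42 ± 0.09 (SE, adjusted p = 8.05e-11), and -1.35, -1.56 and -1.35 in the tdTomato, EYFP and hippocampal lines. Dlx2, its neighbour on chromosome 2, did not pass the test. It ran from 3.45 to 4.67 in NSCs and from 3.16 to 4.33 in astrocytes, with overlapping fates, and its difference of -0.13 ± 0.16 (SE) had a 95% interval of -0.47 to 0.20 (adjusted p = 0.436). By line Dlx2 differed by -0.27, 0.27 and -0.40, none of which passed. After quantile normalisation it was called over all libraries (-0.43, adjusted p = 0.0234) and in the hippocampal line (-0.75, adjusted p = 0.00303), where it was also called with a pseudocount of 10 (adjusted p = 0.0464) and without a variance trend (adjusted p = 0.00578). The antisense transcript Dlx1as shares 335 exon bases (6.2%) with Dlx1 and ran from 1.52 to 3.27.

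Eomes, the T-box factor of intermediate progenitors, was low and fell. It lay at 3.81, 4.46 and 4.13 in tdTomato NSCs, 3.18, 3.57 and 3.22 in EYFP NSCs and 4.84, 5.02 and 5.03 in hippocampal NSCs, against 2.61, 2.18 and 2.77, then 2.30, 2.40 and 2.44, then 3.60, 3.35 and 3.49 in the astrocytes. The fates overlapped only across lines, since hippocampal astrocytes reached the level of EYFP NSCs. The log2 difference was -1.34 ± 0.13 (SE, adjusted p = 2.92e-08), with -1.61 in the tdTomato line and -1.48 in the hippocampal line, both past the threshold. In the tdTomato line Eomes passed the filter only through the NSCs, where it is high, and without a filter it had an adjusted p = 0.00427. In the EYFP line it missed the filter, and the fit without one gave -0.94 (adjusted p = 0.00931).

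Neurog2 and Neurod1 were not tested under the filter. Neurog2, a proneural factor of cortical progenitors, lay between 0.22 and 1.16 in all libraries. Its 6 groups overlapped throughout and 60.7% of its sum of squares lay between replicates. Neurod1, which promotes neuronal differentiation downstream of Neurog2, lay at 2.33, 2.31 and 2.07 in tdTomato NSCs, 1.24, 1.23 and 1.27 in EYFP NSCs and 2.26, 2.51 and 2.78 in hippocampal NSCs, and between 0.72 and 1.13 in the 9 astrocyte libraries. The fates did not overlap. The fit without a filter gave a log2 difference of -1.06 ± 0.17 (SE, adjusted p = 3.11e-05), made up of -1.37 in the tdTomato line and -1.51 in the hippocampal line, both called, and -0.28 in the EYFP line, which was called only after quantile normalisation (-0.42, adjusted p = 0.0427). The counts behind these low values are not known.

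Dcx, the microtubule-binding protein of migrating neuroblasts, rose in the pooled comparison, but not alike in the 3 lines. It lay at 3.85, 4.80 and 4.47 in tdTomato NSCs, 2.50, 2.30 and 1.87 in EYFP NSCs and 1.90, 1.90 and 1.88 in hippocampal NSCs. In astrocytes it lay at 4.00, 4.79 and 4.78, at 4.76, 4.33 and 5.08, and at 3.02, 3.81 and 4.13. The EYFP and hippocampal lines started low and ended high with no overlap between fates, whereas the tdTomato line was high in both fates. The pooled log2 difference was 1.47 ± 0.30 (SE, adjusted p = 0.000185). Within lines it was 2.50 in EYFP cells, a factor of 5.66, and 0.15 in tdTomato cells (95% interval -0.52 to 0.82, adjusted p = 0.649). In EYFP cells Dcx passed the filter only through the astrocytes, where it is high, and in hippocampal cells it missed the filter. The fits without a filter, which do not depend on that choice, gave adjusted p = 0.000682 for the EYFP line and 1.76 (adjusted p = 0.00568) for the hippocampal line.

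Tubb3, the neuronal beta-tubulin recognised as βIII-tubulin, rose in 2 of the lines. It lay at 6.66, 7.01 and 6.93 in tdTomato NSCs, 7.60, 7.83 and 7.29 in EYFP NSCs and 6.57, 6.74 and 6.90 in hippocampal NSCs. In astrocytes it lay at 7.70, 7.98 and 7.85, at 7.71, 7.94 and 7.42, and at 8.58, 8.06 and 7.93. EYFP NSCs already reached the level of their astrocytes, and only in that line did the fates overlap. The pooled difference was 0.85 ± 0.17 (SE, adjusted p = 0.000148), a factor of 1.80. Within lines it was 0.98 in tdTomato cells (adjusted p = 4.98e-05), 1.46 in hippocampal cells (adjusted p = 2.13e-05) and 0.12 in EYFP cells (95% interval -0.25 to 0.48, adjusted p = 0.526).

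Taken line by line, 4 genes fell and 1 rose among 7 tested in the tdTomato line, where 39.5% of all genes tested fell and 39.9% rose. In the EYFP line 3 fell and 1 rose among 6, beside 37.4% and 37.5% of all genes. In the hippocampal line 4 fell and 1 rose among 6, beside 38.2% and 39.2%. Sox4, Sox11 and Dlx1 fell in each line under the filter.

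**Figure D2:**
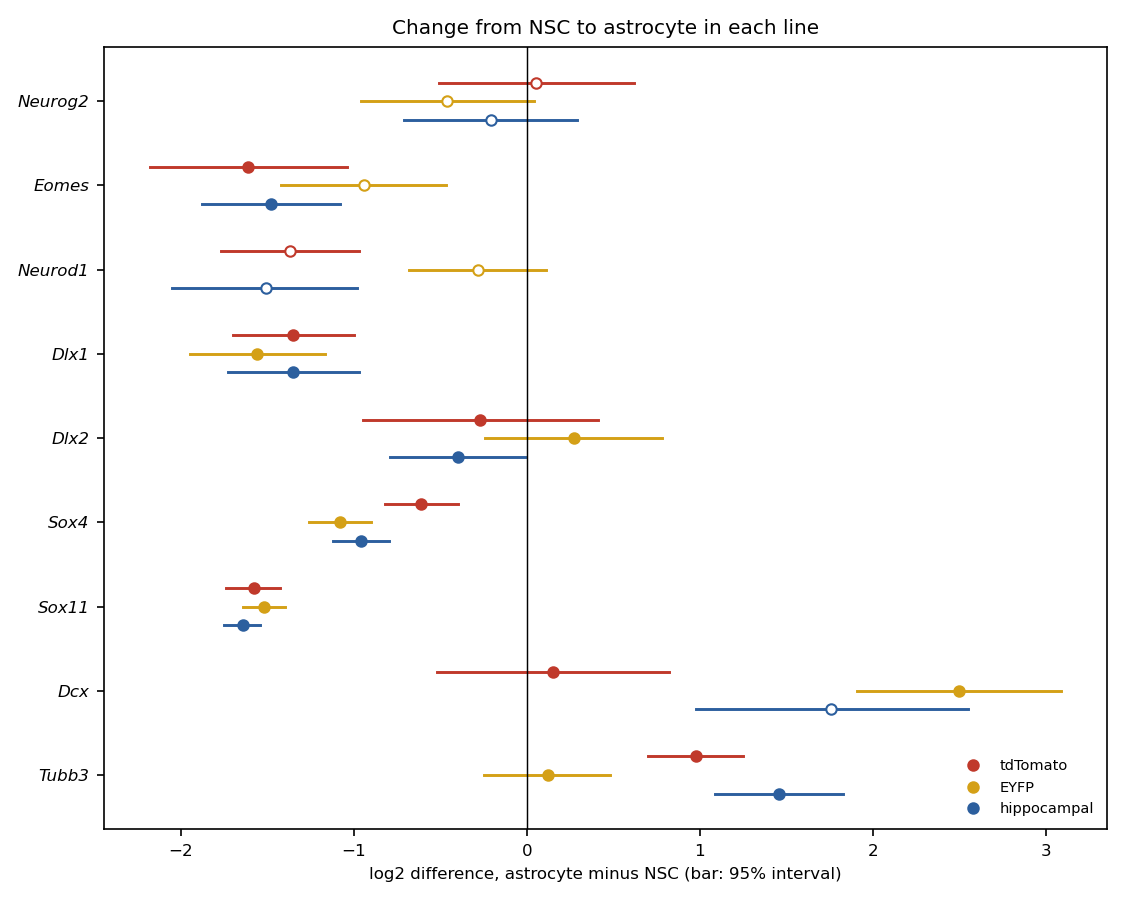
Log2 difference between astrocytes and NSCs (x axis) for each gene (y axis) in the tdTomato, EYFP and hippocampal lines, from 3 against 3 libraries. Points are limma estimates, bars 95% intervals, and open points genes that missed the filter and come from the fit without it. The 3 estimates of Sox11 lie between -1.64 and -1.52, while those of Dcx run from 0.15 to 2.50.

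Whether the change itself differed between lines was tested as an interaction over the 18 libraries. Between the traced lines, the change of Dcx in the tdTomato line was 2.35 ± 0.44 (SE) lower on the log2 scale than in the EYFP line (difference -2.35, adjusted p = 0.00198). The change of Tubb3 was higher in tdTomato cells by 0.86 ± 0.24 (adjusted p = 0.0275) and that of Sox4 by 0.47 ± 0.13 (adjusted p = 0.0275). Thus 2 of 7 genes were higher and 1 lower, beside 6.36% and 6.98% of all genes tested. The calls of Tubb3 and Sox4 lay close to the threshold: of 18 fits that each left out 1 library, Tubb3 was no longer called in 6 (EYFP NSC replicate 1 or 2, tdTomato NSC replicate 1, tdTomato astrocyte replicate 2 or 3, or EYFP astrocyte replicate 3) and Sox4 in 8 (tdTomato NSC replicate 2 or 3, EYFP NSC replicate 1 or 2, tdTomato astrocyte replicate 2 or 3, or EYFP astrocyte replicate 1 or 2). Sox4 also lost its call without the filter (adjusted p = 0.0524) and without a variance trend (adjusted p = 0.0554). In the fit without a filter Neurod1 differed by -1.09 (adjusted p = 0.0313), and it lost that call in 8 of the 18 fits that left out a library.

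Between origins, the change of Tubb3 was the only 1 of the 7 tested to differ, by -0.91 ± 0.21 (adjusted p = 0.00184): it rose less in the mean of the traced lines than in the hippocampal line. No gene of the 7 was higher in this contrast and 1 was lower, beside 20.3% and 25.9% of all genes tested. The call of Tubb3 held in each of the 18 fits that left out a library. Sox11 and Sox4 had interaction differences of 0.09 (95% interval -0.06 to 0.25) and 0.11 (-0.13 to 0.36), and Dcx -0.44 (-1.24 to 0.36), an interval that allows sizeable differences. Without a filter Neurod1 gave 0.69 (adjusted p = 0.0497), a call lost in 15 of 18 such fits.

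The second question is whether DNGR-1-traced cells differ from hippocampal cells within a fate. In NSCs, Eomes and Dlx2 were lower in the 6 traced than in the 3 hippocampal libraries and none of the 7 genes tested was higher, beside 8.81% of all genes lower and 10.6% higher. Eomes had a difference of -1.23 ± 0.28 (SE, adjusted p = 0.0124), with traced libraries between 3.18 and 4.46 and hippocampal ones between 4.84 and 5.03. Dlx2 had a difference of -0.78 ± 0.19 (adjusted p = 0.0176), with traced libraries between 3.45 and 4.26 and hippocampal ones between 4.47 and 4.67. Neither gene overlapped between origins, but both were picked by their calls and the share of all genes without overlap was not counted. Both calls leaned on the small hippocampal group: Dlx2 was not called when any of its 3 NSC replicates was left out, nor Eomes when replicate 2 or 3 was left out, and without hippocampal NSC replicates 2 or 3 neither was called.

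Dcx differed by 1.41 ± 0.64 between traced and hippocampal NSCs, but the traced lines themselves were far apart and the call was not made (adjusted p = 0.159). With the 3 lines as separate groups, so that the distance between the traced lines no longer counted as spread, Tubb3 (0.48, adjusted p = 0.0131) and Dcx (1.41, adjusted p = 0.000857) were called as well, although among NSCs Dcx passed the filter only through the tdTomato line, where it is high, and no weight is put on that call. Without a filter Neurod1 was called too (-0.78, adjusted p = 0.00725, against 0.209 with the traced lines as 1 group). Sox11 did not differ detectably (0.01, 95% interval -0.09 to 0.11).

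In astrocytes, Eomes (-1.03 ± 0.20, adjusted p = 0.00133) and Tubb3 (-0.43 ± 0.16, adjusted p = 0.0401) were lower and Dcx (0.97 ± 0.29, adjusted p = 0.0158) was higher in the traced libraries. These 2 lower and 1 higher among 7 genes stand beside 27.9% and 24.1% of all genes. Eomes lay between 2.18 and 2.77 in traced and between 3.35 and 3.60 in hippocampal astrocytes, without overlap, and it passed the filter only through the hippocampal libraries (adjusted p = 0.00195 without a filter). Dcx lay between 4.00 and 5.08 in traced and between 3.02 and 4.13 in hippocampal astrocytes, and Tubb3 between 7.42 and 7.98 against 7.93 and 8.58, so both overlapped. Dcx was not called without hippocampal astrocyte replicate 1, where its difference was the smallest of these fits, 0.66. Tubb3 was not called in 6 of 9 such fits (without tdTomato astrocyte replicate 1 or 3, EYFP astrocyte replicate 1 or 3, or hippocampal astrocyte replicate 1 or 2, and -0.23 without hippocampal astrocyte replicate 1), and neither was it after median centring (adjusted p = 0.0576), quantile normalisation (adjusted p = 0.0643), without a filter (adjusted p = 0.0805) or without a variance trend (adjusted p = 0.0552).

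The traced lines were also set against each other, 3 against 3, which measures how far lines of the same labelled origin stand apart. In NSCs the tdTomato line was higher than the EYFP line in Dcx (2.15 ± 0.29, adjusted p = 0.00125, or 0.019 without the filter, which Dcx passed only through the tdTomato NSCs) and Eomes (0.81 ± 0.23, adjusted p = 0.0272) and lower in Tubb3 (-0.71 ± 0.15, adjusted p = 0.00903) and Sox4 (-0.60 ± 0.11, adjusted p = 0.00488). These are 2 higher and 2 lower of 7, beside 18% and 15.2% of all genes. The lines did not overlap for any of the 4, but these were picked by their calls and the share of all genes without overlap was not counted. Without the filter, which lets in many genes near the floor, Eomes, Tubb3 and Sox4 missed the threshold at adjusted p = 0.0862, 0.0611 and 0.053. Eomes was also not called in 4 of the 6 fits that left out a library (tdTomato NSC replicate 2 or 3, EYFP NSC replicate 1 or 3). Neurod1 was higher by 0.99 (adjusted p = 0.0122) in the fit without a filter, and was not called in 3 of the 6 fits that left out a library.

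In astrocytes none of the 6 genes tested was called between the traced lines by limma, higher or lower, beside 5.6% and 5.63% of all genes, and their differences lay between -0.20 for Dcx and 0.15 for Tubb3. Sox4 came nearest, at -0.13 with a 95% interval of -0.26 to 0 and an unadjusted p of 0.0456, which none of the other 5 genes reached.

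**Figure D3:**
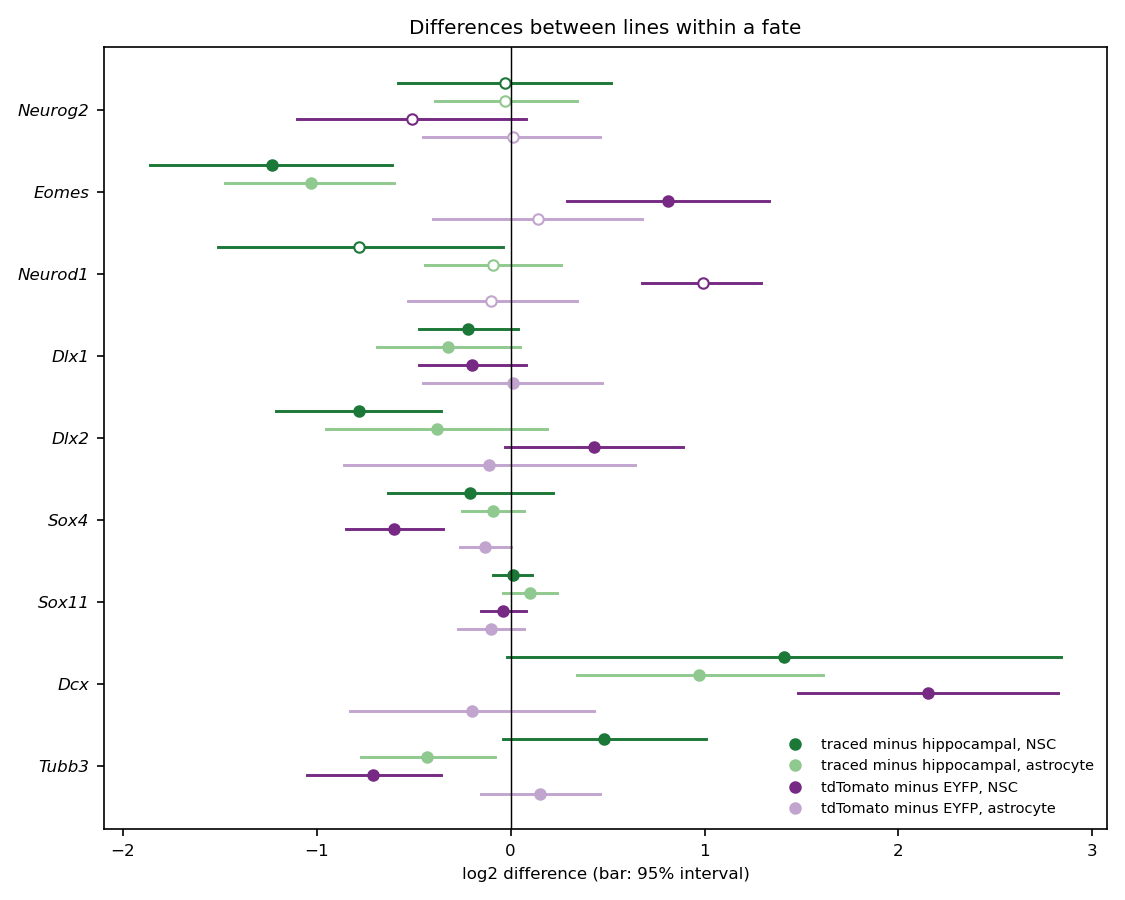
Log2 differences between lines within a fate (x axis) for each gene (y axis): traced minus hippocampal libraries (greens, 6 against 3) and tdTomato minus EYFP libraries (purples, 3 against 3). Points are limma estimates, bars 95% intervals, and open points genes that missed the filter. For Dcx in NSCs the distance between the traced lines, 2.15, exceeds the 1.41 between origins, while the 4 estimates of Sox11 lie between -0.10 and 0.10.

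The tdTomato line differed from the other lines in sex-linked transcripts, a measured fact that stands beside the NSC values of Dcx, an X-linked gene (chrX:143855842-143933311, GRCm38, minus strand). Xist, the RNA made from the inactive X chromosome, lay between 13.09 and 14.99 in tdTomato libraries and between 5.04 and 5.59 in the 12 others. The Y-linked Ddx3y lay between 4.29 and 4.53 and between 8.43 and 9.92. These transcripts set the tdTomato line apart in both fates, whereas Dcx differed between the traced lines by 2.15 in NSCs and by -0.20 in astrocytes (adjusted p = 0.736). The part of sex in the Dcx difference between NSC lines was not tested, and sex and line cannot be told apart with 1 line of the first kind.

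Fate held most of the sum of squares for Sox11 (99%), Dlx1 (92.7%), Sox4 (80%), Neurod1 (61.5%), Tubb3 (58.6%) and Eomes (54.7%). Line held 46.3% for Dlx2, 39.1% for Eomes and 34.6% for Dcx. The interaction of fate and line was largest for Tubb3 (24.9%) and Dcx (17.6%).

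**Figure D4:**
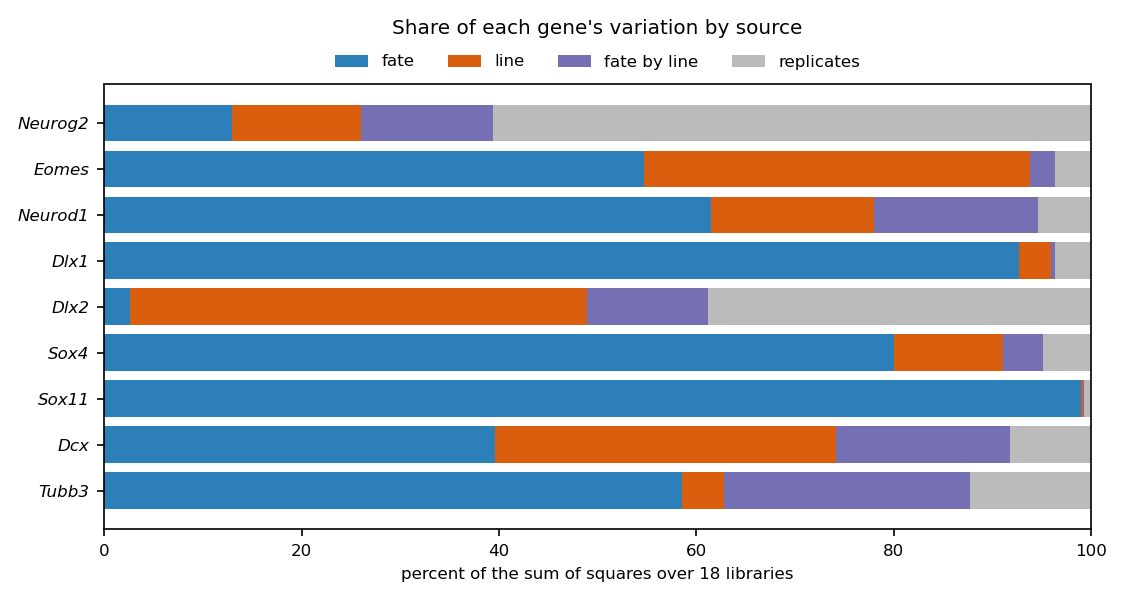
Percent of each gene's sum of squares over the 18 libraries (x axis) that lies between fates, between lines, in their interaction and between replicates of a group, stacked to 100 for each gene (y axis). Sox11 is almost all fate (99%), Dcx is divided among fate (39.6%), line (34.6%) and interaction (17.6%), and Neurog2 lies mostly between replicates (60.7%).

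Other genes of the same pathways were read from lists. The background for each list between fates is that given above, 39.8% of all genes lower and 42.1% higher, and counts near these shares say nothing particular of a list. Of the 14 proneural bHLH factors and partners, 12 were in the table and 7 were tested between fates: 5 fell and 2 rose, with a median log2 difference of -0.55 beside 0.02 over all genes. Insm1, a zinc-finger factor of neuronal progenitors, fell by 2.63 and Hes6, a Hes relative that favours neurogenesis, by 1.25. Atoh1, a proneural factor of the hindbrain, reached the filter level only in tdTomato astrocytes and did not move alike in the lines. It went from 1.44 to 3.75 in the tdTomato line, from 1.12 to 2.53 in the EYFP line and from 1.07 to 0.88 in the hippocampal line, and its interaction with origin was 2.05, with no weight put on its tests, since it passed the filter through the group where it was highest. The E protein genes Tcf3, Tcf4 and Tcf12 fell by 0.55, 0.24 and 0.65. Of 10 repressors of neurogenesis, 9 were tested: 6 rose and 1 fell, with a median of 0.97. The largest rises were in the Id genes, whose products sequester E proteins: Id4 by 4.33, Id1 by 2.87, Id2 by 2.16 and Id3 by 2.06. Hes1, a Notch-driven repressor, fell by 1.19, and Rest differed by -0.03 (adjusted p = 0.45). Hes5 did not move alike in the lines. It went from 5.60 to 6.92 in tdTomato, from 7.91 to 7.79 in EYFP and from 8.05 to 5.79 in hippocampal cells (interaction with origin 2.87). In each list the genes past the threshold with the largest differences are named, while Tcf3, Tcf4, Hes1, Hes5, Rest and the smaller tubulin changes were added after their values were seen.

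Of 12 genes of the Dlx family and GABAergic lineage, 6 were tested, 3 rose in the pooled comparison (Dlx3 by 2.25, Dlx6 by 0.71 and Sp9 by 0.27) and none fell, with a median of 0.22, beside the same background of 42.1% and 39.8%. Dlx3 passed the filter only through the traced astrocytes, where it is high (3.49 to 5.42, against 1.69 to 3.03 in hippocampal astrocytes and 1.25 to 2.30 in NSCs), and had an adjusted p = 1.82e-06 without a filter. The pooled value of Dlx6 came from the tdTomato line, where it went from 1.85 to 3.88 and through whose astrocytes alone it passed the filter, beside 0.32 and 0.36 in EYFP and 0.35 and 0.40 in hippocampal cells. No weight is put on the call of Dlx6. Sp9 went from 8.60 to 9.33 in EYFP cells (adjusted p = 1.92e-05), from 7.37 to 7.60 in tdTomato cells (adjusted p = 0.111) and from 8.38 to 8.23 in hippocampal cells (adjusted p = 0.108). Its pooled call was lost in 4 of the 18 fits that left out a library (tdTomato NSC replicate 3, EYFP NSC replicate 1 or 2, or EYFP astrocyte replicate 3). Of 8 genes of the glutamatergic and cortical lineage, 6 were tested: 3 rose, among them Pax6 (0.99) and Prox1 (0.52), and Bcl11b (-2.28) and Lhx2 (-1.06) fell, shares near that background. Both fell more in the traced lines: Bcl11b by 3.19 in tdTomato, 2.85 in EYFP and 0.81 in hippocampal cells (interaction with origin -2.21, adjusted p = 1.74e-06), and Lhx2 by 1.25, 1.53 and 0.41 (-0.98, adjusted p = 1.92e-05). Between origins Gad1, the GABA-synthesising enzyme, differed by -2.0 in NSCs and -2.82 in astrocytes (traced minus hippocampal).

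Of 18 genes of the neuroblast cytoskeleton, migration and adhesion, 17 were tested between fates: 7 rose and 4 fell, with a median of 0.10, beside 42.1% and 39.8% of all genes. Map1b, which stabilises microtubules in growing axons, rose by 2.90 and Nrep by 2.12, while the microtubule-destabilising Stmn1 fell by 1.73 and Cd24a, a surface marker of neuroblasts, by 1.18. Stmn1 fell by 2.38, 1.78 and 1.02 in the tdTomato, EYFP and hippocampal lines, and Cd24a by 1.71 in both traced lines, with -0.12 in the hippocampal line (adjusted p = 0.351). Of the 10 other tubulin genes, all were tested: 7 fell, among them Tuba1c by 2.77, Tubb5 by 1.54 and Tubb2b by 1.44, and Tuba4a (4.02) and Tuba1a (0.61) rose, beside 39.8% and 42.1% of all genes. Over all libraries Tubb3 rose where Tubb2a, Tubb2b, Tubb4b, Tubb5 and Tubb6 fell. In the hippocampal line, however, Tubb2a (-0.07, adjusted p = 0.372) and Tubb4b (0.01, adjusted p = 0.842) were not called, and in the EYFP line all 5 fell while Tubb3 was not called. Tubb4a, the remaining beta-tubulin of the list, did not move alike in the lines. It went from 8.38 to 7.89 in tdTomato, from 6.67 to 6.99 in EYFP and from 6.52 to 7.52 in hippocampal cells. Tubulin genes are near-identical in places, and reads shared between them were divided by the authors' estimate.

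The same cytoskeletal lists were read in the interaction with origin, in which 25.9% of all genes tested were lower and 20.3% higher, with a median of -0.03. Of the 17 neuroblast genes, 10 had a lower and 5 a higher astrocyte-minus-NSC difference in traced than in hippocampal cells (median -0.47), among them Gap43 (-2.40), Igfbpl1 (-1.79), Dpysl3 (-1.75) and Stmn4 (-1.74), which passed the filter only through the hippocampal astrocytes, where it is high (4.09 to 4.48, against at most 2.47 elsewhere; adjusted p = 0.000633 without a filter). Of the 10 tubulin genes 8 had a lower and 1 a higher interaction (median -0.50), with Tuba1c at -1.28, Tubb4a at -1.09, Tubb2b at -0.81 and Tuba1a at -0.64. Tubb3, with -0.91, lay within the range of these tubulins.

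**Figure D5:**
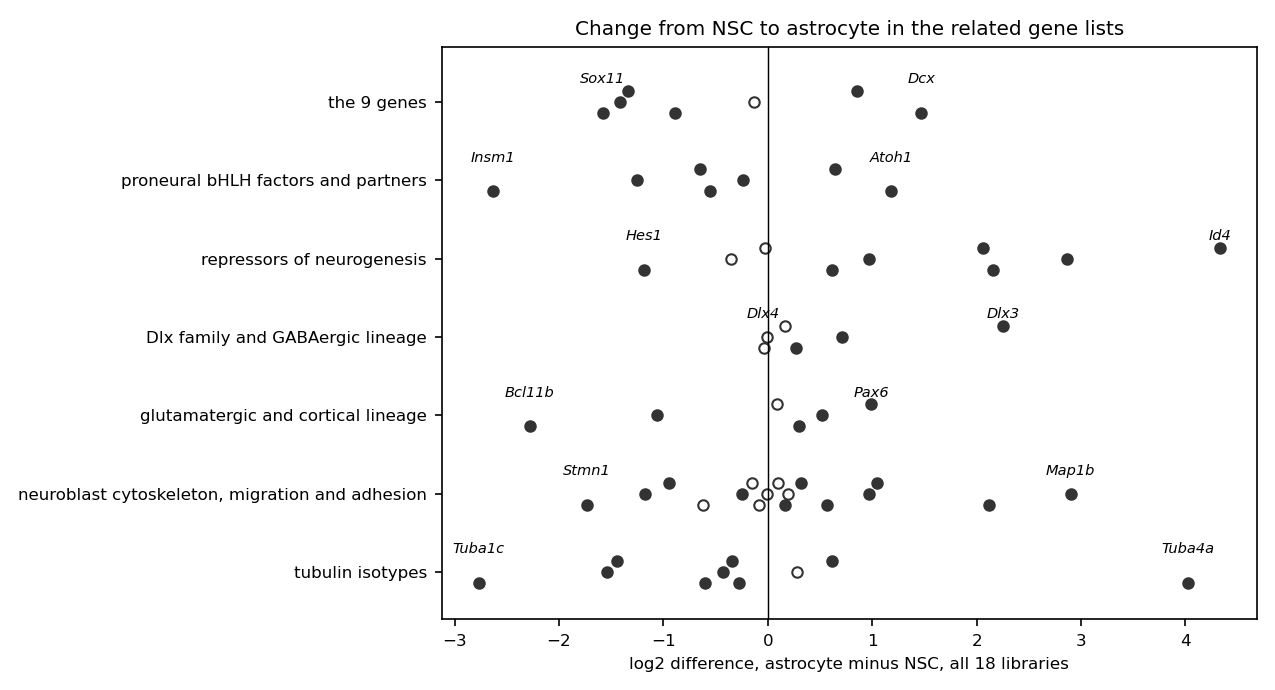
Log2 difference between astrocytes and NSCs over all 18 libraries (x axis) for the genes tested among the 9 and in each related list (y axis, small vertical shifts only separate points). Filled points passed the limma test, open points did not, and the lowest and highest gene of each row is named. Id4 (4.33) and Tuba4a (4.02) are the highest, Tuba1c (-2.77) and Insm1 (-2.63) the lowest.

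Markers of other cell types were read beside these results. Gfap, the astrocyte filament, lay between 8.96 and 9.44 in NSCs and between 14.69 and 16.66 in astrocytes, and all 8 astrocyte markers rose. Of the NSC markers, Nes fell by 2.15 over the lines, but stood at 13.64 in hippocampal astrocytes beside 11.09 and 10.86 in the traced ones, and Fabp7 fell by 0.76, whereas Sox2, Vim and Prom1 rose by 1.06, 1.21 and 1.78 and in each line. The summed level of the 5 NSC markers was 81800 to 90200 in NSCs and 84500 to 239000 in astrocytes. Mki67, a marker of dividing cells, fell from 12.93 to 6.72, and the summed linear level of Mki67 and Top2a was 17000 to 20500 in NSC groups and 334 to 435 in astrocyte groups, so proliferation moved with every difference between fates given here. Its part in them was not tested. Of 13 mature neuron markers, 11 were in the table. Their summed level was 23000 to 25700 in NSCs and 15300 to 21000 in astrocytes, and Map2 alone stood at 14.49 and 14.15. Elavl4, Elavl2 and Elavl3, neuronal RNA-binding proteins, fell by 2.52, 1.25 and 0.60, while Rbfox3, the gene of NeuN, rose by 1.73 alongside Tubb3 and Dcx. Snap25, Nefl and Slc17a7 of this list did not reach the filter in enough libraries. Syp, however, lay between 7.36 and 8.47 over the libraries, Syt1 between 2.90 and 5.16 and Nefm between 1.71 and 4.50. In each group, 6 to 8 of the 11 genes reached the filter level in all 3 libraries. Sums for microglia (1.94 to 4.01) and endothelial cells (2.35 to 6.50) were near the floor in all groups. Olig2 fell by 2.01 and the ependymal factor Foxj1 rose by 1.45.

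The genes most like 6 of the 9 over the 18 libraries were sought among 12007 genes with a group mean of at least 6.64, as a description with no test. Neurog2 and Neurod1, below the filter, and Dlx2, whose group means spanned just under 1, were left out. For Sox11 they were Hnrnpa1, Ckap2l and Nsd2 (Pearson r = 0.996 each), and Ckap2l is a spindle gene that went from 11.10 to 6.76. For Sox4 they were Pcdh9 (0.986), Lrrtm2 (0.983) and Ptprz1 (0.981). For Dlx1 they were Smarcd1 (0.987), Plk3 (0.986) and Arhgap33 (0.980), and for Eomes Cd93 (0.975), Mrpl3 (0.964) and Opcml (0.960). For Dcx they were Tns3 (0.933), Eda (0.925) and Adcy1 (0.917), and for Tubb3 Slc35d1 (0.914), Aff1 (0.906) and Rnf166 (0.904). The 18 libraries share their groups of fate and line, which enter each of these values.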

How the data were processed

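Per the labels and the paper, libraries were sequenced as single-end reads, trimmed with Trimmomatic (version 0.36), aligned with STAR (version 2.5.2a) and counted with RSEM on an Ensembl annotation of GRCm38, and the counts were normalised in DESeq2, version 1.18.1. The values deposited are log2 values (from -2.15 to 18.86, 29.4% negative) that have the form of a regularised log; the transform is not named in the sources used here. Counts could not be recovered and the depth behind a value is unknown. Errors are those between replicates, with differences between lines added in the origin and pooled fate fits. The paper names a KAPA kit and the labels a stranded TruSeq kit. Replicates of a group differed by a median of 0.0607 to 0.1074 per gene.

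The log2 values were compared in R 4.3.3 with limma (version 3.58.1), using a variance trend and Benjamini-Hochberg adjustment over all genes tested, at a threshold of 0.05. DESeq2 was not applied here, since it needs counts. The method was run on simulated data with planted differences and spread between replicates alone. That run cannot speak for comparisons in which differences between lines count as spread. The fates were compared over 18 libraries with the line as covariate and within lines, traced with hippocampal libraries 6 against 3, traced lines 3 against 3, and changes of fate as interactions. Alternatives were no filter, a filter of 100, pseudocounts of 1 and 10, median centring, quantile normalisation, no trend, a replicate block, other designs and leaving out each library. The genes and lists were chosen with earlier results of these data known. The 9 genes are all given. From each list, up to 4 genes past the threshold with the largest differences are named, with exceptions stated. Some genes of the lists are counted but not reported here by name. Positions are those of GENCODE M21 on GRCm38.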

Additional observations from a re-analysis of the deposited data

Results flagged for a closer look

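The change from NSC to astrocyte differed between lines, by the interaction test itself, for 3 genes. Dcx differed by -2.35 between the traced lines (tdTomato change minus EYFP change), Tubb3 by 0.86 and Sox4 by 0.47, and Tubb3 by -0.91 between origins (traced change minus hippocampal change).

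In Sox11, tdTomato astrocyte replicate 1 lay at 9.52, apart from the 5 other traced astrocyte libraries, which lay between 9.74 and 9.81. It was the only library to stand apart in 36 combinations of a gene and a pool of 6 or 9 libraries, and chance flags about 1 in 20. Without this library the limma fit called Sox11 between origins in astrocytes, at 0.15 in place of 0.10.

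Gm26735, the lincRNA that overlaps the exon of Sox4 on the other strand and enters none of the comparisons, was at 7.95 and 6.62 in tdTomato astrocyte replicates 2 and 3 and at 7.63 in EYFP astrocyte replicate 2. It lay between 0.35 and 0.53 in the other 15 libraries, all NSC libraries included.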

How the results depend on the processing

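The number of the 9 genes called was 6 between fates over all libraries. With a filter of 100 it was 3, as Eomes, Dlx1 and Dcx were no longer tested, and in the same order 3, 2 and 3 (in place of 5, 4 and 5) in the tdTomato, EYFP and hippocampal lines, 0 and 1 (in place of 2 and 3) between origins in NSCs and astrocytes, and 2 (in place of 4) between the traced NSC lines. Without a filter it was 2 between the traced NSC lines, and 2 in place of 1 in the interaction with origin (Neurod1 added), as it also was with a pseudocount of 10 (Eomes added, 0.36, adjusted p = 0.0301). With 3 lines as groups, 4 genes were called between origins in NSCs. Leaving out 1 library gave 0 to 2 genes between origins in NSCs, 0 to 3 in astrocytes, 2 to 4 between the traced NSC lines and 1 to 3 in the interaction of the traced lines. Apart from the replicate block, the other counts of these 9 genes stayed within 1.5 times under each alternative run.

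The direction turned for differences that were not called. Quantile normalisation gave -0.14 for Dcx in the tdTomato line, 0 for Sox11 between origins in NSCs and -0.05 for Dlx1 between the traced astrocytes, and median centring gave -0.02 for Sox11 between origins in NSCs. Leaving out 1 library gave, between fates, -0.02 to 0.25 for Tubb3 in the EYFP line, and -0.11 to 0.41 for Dcx and -0.58 to 0.01 for Dlx2 in the tdTomato line. It gave -0.21 to 0.02 for Dlx1 in the interaction with origin, -0.12 to 0.02 for Sox11 in that of the traced lines, and -0.03 to 0.04 for Sox11 between origins in NSCs. Between the traced astrocytes it gave -0.40 to 0.06 for Dcx, -0.09 to 0.16 for Dlx1 and -0.42 to 0.16 for Dlx2. The cause was not tested.

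Over all genes, the calls between origins in NSCs were 2822, or 5207 with 3 lines as groups and 1657 to 2886 without 1 library. Between the traced lines they were 4748 in NSCs, 2970 without a filter, and 1641 in astrocytes, 975 without a filter. Leaving out 1 library gave 2719 to 5194 in the NSCs (moved by over 1.5 times without tdTomato NSC replicate 2 or 3 or EYFP NSC replicate 1), 936 to 1591 in the astrocytes (tdTomato astrocyte replicate 2, EYFP astrocyte replicate 1 or 3), and 1317 to 2493 in place of 2060 in the interaction of the traced lines (tdTomato NSC replicate 3). The replicate number of the titles was not taken to pair the libraries, since it is not tied to a passage in the sources used here and same-numbered libraries of a fate correlated at 0.012 to 0.313, over 0.1 in only 9 of 18 pairs. Their mean of 0.106, beside -0.053 for different numbers (over 0.1 in 1 of 36 pairs), is a hint from the data that numbers are shared in part. With that number as a replicate block, 1 gene was called between the traced astrocytes in place of 0 (Sox4, -0.13, adjusted p = 0.0286), and 3049 over all genes in place of 1641. The block ended 2 calls of Neurod1 made without a filter, between the traced NSC lines (adjusted p = 0.064) and in the interaction with origin (adjusted p = 0.0641), and no other call of the 9 genes. Depth is unknown, which limits most what can be said of Neurog2, Neurod1, Eomes and Dcx.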
